A study of Mus musculus with 6 samples.

Results

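The retained introns of 200 bases or more in mouse CD4+ T cells were examined, with and without CD2BP2/U5-52K. They are the events of the deposited retained intron table in which at least 200 bases separate the end of the upstream exon from the start of the downstream exon. Of 2796 retained intron events, 1647 met this rule and 1149 were shorter. RNA was sequenced from sorted CD4+ CD8- T cells that had been pooled from spleen and peripheral lymph nodes of male mice. The cKO group was 3 libraries of U5-52Kf/f CD4-Cretg mice, in which both alleles are floxed. The Control group was 2 libraries of U5-52Kwt/f CD4-Cretg mice and 1 library of a U5-52Kf/f CD4-Cre- mouse, so the Control animals differed from each other in Cre and in the number of floxed alleles. CD4-Cre becomes active in double-positive thymocytes, so in the 5 libraries that carry it the peripheral cells had passed through the later thymic stages and their release from the thymus with the floxed gene already exposed to Cre. The methods name 3 mice for each condition, which matches the 3 libraries, and a p-value here covers the spread among these animals.

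CD2BP2/U5-52K is a protein of the U5 snRNP, one of the RNA-protein particles that make up the spliceosome, and it leaves the particle before the U4/U6.U5 tri-snRNP is complete. An intron is removed between a 5′ splice site that usually starts with GT and a 3′ splice site that usually ends with AG. An intron that stays in the RNA is retained, and most retained introns in coding sequence bring a stop codon into the reading frame. Such RNAs can be held in the nucleus or degraded by nonsense-mediated decay, and genes of splicing factors often use retained introns to set their own level. A minor class of introns, removed by the U12-dependent spliceosome, which also uses U5, has a longer and more fixed 5′ splice site.

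The sequences of the introns that the results turn on are given 5′ to 3′ on the strand of the gene (GRCm38). The 253-base intron of Clasrp at chr7:19584531-19584783, on the minus strand, is shown whole because 2 members end at its AG and differ in their 5′ splice site. Capitals mark the 2 GT starts, 4 bases apart, and the AG.
Clasrp intron: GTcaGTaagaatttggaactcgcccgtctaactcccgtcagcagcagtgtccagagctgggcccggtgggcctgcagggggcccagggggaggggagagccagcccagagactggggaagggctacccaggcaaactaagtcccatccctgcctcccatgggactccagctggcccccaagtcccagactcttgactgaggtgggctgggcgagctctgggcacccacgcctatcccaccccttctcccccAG

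The ends of the Lrmp intron at chr6:145137608-145138045 and of the Snrpa1 intron at chr7:66069527-66070589, both on the plus strand, are shown with 20 exon bases and 40 intron bases each. Lrmp held the member with the smallest p, and Snrpa1 is the gene of a U2 snRNP protein. Capitals mark the first or last 2 bases of the intron.
Lrmp 5′ end: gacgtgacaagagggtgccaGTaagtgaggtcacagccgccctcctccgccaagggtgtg
Lrmp 3′ end: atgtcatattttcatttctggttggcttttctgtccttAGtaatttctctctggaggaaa
Snrpa1 5′ end: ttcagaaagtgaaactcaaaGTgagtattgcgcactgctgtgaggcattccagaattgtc
Snrpa1 3′ end: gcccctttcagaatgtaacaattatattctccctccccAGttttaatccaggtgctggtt

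Introns that start with AT and end with AC were found in 5 members of 4 genes, and their 5′ splice sites are shown as ends of a rare type. Each line has 10 exon bases and 20 intron bases, and capitals mark the first 6 intron bases. They lie at chr2:181686237-181686266 for Tcea2 (plus strand), chr12:69212967-69212996 for Pole2, chr3:68994481-68994510 for Ift80 and chr9:108069656-108069685 for Rnf123 (all minus strand).
Tcea2 5′ end: atcgaggagtATATCCtttgtacagggtat
Pole2 5′ end: tagtaaagctATATCCtttaaaaaaaaaaa
Ift80 5′ end: gaaccaaagcATATCCtttaaccctgtata
Rnf123 5′ end: gtcctttgcgATATCAttttgggaaggtgg

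The 1647 introns lay in 1208 genes. A single member was found in 909 genes and 2 or more in 299, and Becn1, the gene of the autophagy protein Beclin-1, held 8. Their median length was 600 bases, with a range from 200 to 8856. The length was 200 to 499 bases in 707 members, 500 to 999 in 434, 1000 to 1999 in 370 and 2000 or more in 136. Introns overlapped, since 402 members (24.4%) covered part of another member, so members are not independent of each other.

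Most members were GT-AG introns inside coding sequence. A sequence was read for 1641 members, from an annotated transcript that retains the intron. Of these, 1604 were GT-AG, 29 GC-AG and 5 AT-AC, and 3 had other ends. In the annotation, 1310 members lay in coding sequence, 45 in a 5′ UTR, 68 in a 3′ UTR and 57 in noncoding transcripts, and for 167 no annotated transcript splices exactly this intron. Another annotated exon of the same gene lay inside 808 members (49.1%), against 20.2% of the introns under 200 bases. The median GC content was 48.7%, and 56.3% in the shorter introns. Read in the frame of the upstream exon, 1262 of 1306 coding introns (96.6%) held a stop codon, against 69.8% of the shorter ones.

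The libraries held between 56995121 and 82286366 reads in genes, and between 570902 and 810383 reads fell on the members. The splicing tables give 3 values per condition without library names, so the positions 1 to 3 of an intron's values below are unnamed. In both conditions the read totals of all retained introns rank by position as reads in genes rank by library number. The H2-Oa intron had 859 spliced reads at cKO position 1, against 266 and 291 at positions 2 and 3. The H2-Oa gene had 3919 normalized counts in KO_7.8, against 969.8 and 1048 in the other cKO libraries. These values point to KO_7.8 at cKO position 1, but the order of the positions was not tested. Cd4, Cd3e, Cd3g and Cd28, the 4 measured of 6 CD4+ T cell markers, summed to between 197906 and 222553 normalized counts in Control and between 178845 and 190482 in cKO. The 7 myeloid markers summed to between 1845 and 3480 in Control and between 2849 and 15028 in cKO, with the highest value in KO_7.8, the 5 B cell markers to between 7060 and 10137 and between 3055 and 5761, and the 3 measured of 4 erythroid markers to between 140 and 4032 and between 306 and 3042. None of these markers summed to 0 in any library, and the part of other cell types in the intron results was not tested.

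Most members were spliced almost completely in Control cells. The retention level is the share of the retained form after the reads of each form are divided by the length that can yield them. Tests were limited to introns averaging 20 reads or more in each condition, which left 1253 members in 966 genes. Their median Control level was 0.768%. It was under 1% in 709 members (56.6%), 1 to 10% in 341 (27.2%), 10 to 50% in 83 (6.62%), 50 to 90% in 66 (5.27%) and 90% or more in 54 (4.31%). Longer introns had lower levels, with a Spearman correlation of -0.32 between length and Control level across 1253 introns of the same libraries, which is a description because the length itself divides the reads of the retained form.

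The retention level of the members as a whole did not differ between the conditions beyond the spread of the libraries. The library medians were 0.788%, 0.670% and 0.671% in Control and 0.653%, 0.841% and 0.758% in cKO. The lowest and the highest of these 6 medians were both cKO libraries, so the groups overlapped. The difference was 0.041 percentage points (exact two-sided permutation test, p = 0.7, where 3 against 3 cannot go below 0.1). For introns under 200 bases the difference of the medians was 0.223 points (exact permutation p = 0.3). The long minus short median moved by -0.182 points (exact permutation p = 0.3), so a different shift of long and short introns was not shown. Within the length classes the exact permutation p was 0.6 for 200 to 499 bases, 0.9 for 500 to 999, 0.8 for 1000 to 1999 and 0.8 for 2000 or more, and adjusted over these 7 medians each permutation p was 0.9.

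**Figure D1:**
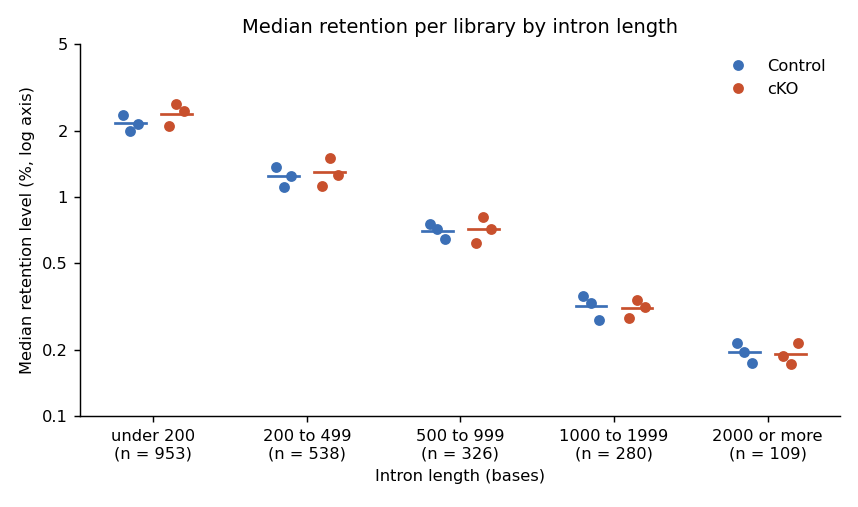
Median retention level in each library (percent, log axis) by intron length class in bases, with 3 Control points, 3 cKO points and lines at the group means. The medians fall from about 2% under 200 bases to about 0.2% at 2000 bases or more, and Control and cKO points overlap in every class.

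Single introns of 200 bases or more rarely passed the test. A call needed a difference of 10 percentage points or more and an adjusted p below 0.01 in a quasi-binomial test moderated with limma. Of the 2206 introns of any length that were tested, 4 (0.181%) were called, and 1 of the 1253 members was among them, the Lrmp intron, which was lower in cKO. At an adjusted p under 0.05 alone, 14 of 2206 (0.635%) passed, and 2 members, with Clasrp higher and Lrmp lower. At an unadjusted p under 0.05, 87 members passed (6.94%, 59 higher and 28 lower in cKO), where 9.02% of all tested introns did. The 3 cKO values lay entirely above or below the 3 Control values in 138 members (11%), where 13.3% of all tested introns did. They were higher in 91 members, where 10% of all tested introns were, and lower in 47, where 3.31% were. The cKO mean was higher in 659 members (52.6%, against 56.3% of all tested introns), and the median difference was 0.012 points.

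The shorter introns gave larger counts in the same test. Of 953 tested introns under 200 bases, 3 were called and 12 passed an adjusted p under 0.05 (11 higher), and the cKO mean was higher in 582 (61.1%) with a median difference of 0.152 points. The difference between these counts was not tested. Among the members the share with an unadjusted p under 0.05 was 8.55% at 200 to 499 bases, 3.37% at 500 to 999, 6.07% at 1000 to 1999 and 11.9% at 2000 or more. By place, it was 68 of 1089 in coding sequence (6.24%), 1 of 33 in 5′ UTRs, 4 of 36 in 3′ UTRs, 4 of 37 in noncoding transcripts and 10 of 58 introns that no annotated transcript splices.

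Lrmp encodes a lymphoid-restricted protein of the endoplasmic reticulum membrane. Its member is 438 bases long, and the annotation has it in a transcript with a retained intron. It is spliced as intron 2 of 19 in a transcript of the nonsense-mediated decay class, within the coding sequence annotated there. No transcript of the protein-coding class splices exactly this intron. The retention level was 38.32%, 33.9% and 30.26% in Control and 13.45%, 9.34% and 10.87% in cKO. All cKO values lay below all Control values. The mean fell from 34.16 ± 4.03% to 11.22 ± 2.08% (SD, n = 3), a difference of -22.94 points (quasi-binomial test, adjusted p = 0.000846). The adjusted p was 0.0442 with edgeR and 0.17 with limma on logit retention, and so the call was lost with both.

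The reads of the Lrmp intron itself overlapped between the conditions. They were 93, 97 and 53 in Control and 79, 80 and 87 in cKO. The reads that splice this intron rose instead, from 38, 48 and 31 to 129, 197 and 181. The 3′ splice site of the intron leads to an exon of 41 bases, chr6:145138046-145138086, that is also listed as a skipped exon. Reads that splice past this exon, which use the same 5′ splice site, numbered 365, 396 and 268 in Control and 232, 288 and 254 in cKO. Reads of the form with the exon numbered 81, 76 and 60 in Control and 185, 247 and 261 in cKO, without overlap. Of the intron reads, the reads spliced to the exon and those spliced past it, the last were the most frequent at all 6 positions, and they do not enter the retention level as deposited.

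When the intron reads of Lrmp were set against the reads of all listed junctions that share 1 of its splice sites, the level was 5.52%, 5.25% and 4.31% in Control and 5.22%, 4.02% and 4.81% in cKO. The groups then overlapped. The means were 5.03% and 4.68%, a difference of -0.34 points (quasi-binomial test on the joined reads, adjusted p = 0.902). The Lrmp gene had normalized counts of 8433 ± 848 for Control and 8986 ± 776 for cKO (SD, n = 3), and its log2 fold change of 0.09 did not pass (limma, adjusted p = 0.742). Other introns of Lrmp in the table, of 97 and 88 bases, had differences of 0 and 0.3 points.

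**Figure D2:**
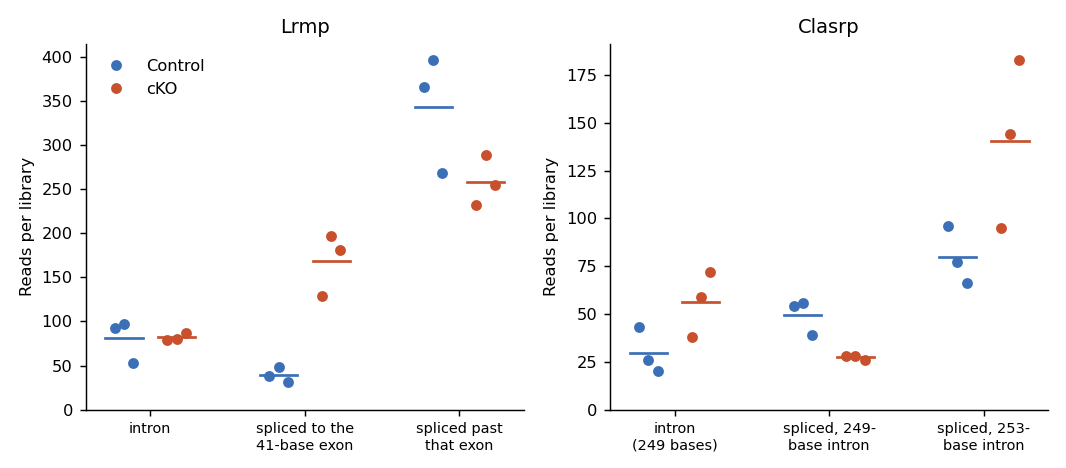
Reads per library for the forms of Lrmp (left) and Clasrp (right), with Control and cKO points and lines at the group means. In Lrmp the intron reads overlap while reads spliced to the 41-base exon rise in cKO and those spliced past it reach 396 in Control and 288 in cKO; in Clasrp the intron reads overlap, reads of the 249-base splice are lower in cKO and those of the 253-base splice range from 66 to 96 in Control and from 95 to 183 in cKO.

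Clasrp encodes a serine/arginine-rich protein that binds the splicing kinase CLK4. Its 249-base intron, chr7:19584531-19584779, starts at the inner GT of the sequence printed above. The annotation has this intron spliced in a transcript of the nonsense-mediated decay class and in none of the protein-coding class. The retention level was 22.96%, 14.81% and 16.11% in Control and 33.69%, 44.1% and 50.9% in cKO. All cKO values lay above all Control values. The mean rose from 17.96 ± 4.38% to 42.9 ± 8.67% (SD, n = 3), by 24.94 points (quasi-binomial test, adjusted p = 0.0455). It did not reach the threshold of 0.01 for a call. The adjusted p was 0.29 with edgeR, 0.409 with limma on logit retention and 0.055 with no minimum on reads. It was 0.176 and 0.102 without the Control values at positions 2 and 3, and 0.129 and 0.324 without the cKO values at positions 2 and 3. Without the values at position 1 it was 0.0249 for Control and 0.0107 for cKO, and it was 0.0151 with the dispersion prior set over all events.

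The 253-base member of Clasrp, which starts 4 bases upstream at the outer GT and is spliced in a protein-coding transcript, had a smaller difference. Its level was 15.63% at position 1 in Control and 11% at positions 2 and 3, and 13.79%, 13.95% and 13.34% in cKO, so the groups overlapped, with a difference of 1.11 points (quasi-binomial test, adjusted p = 0.976). Both members count nearly the same intron reads, and they differ in the spliced reads. Reads spliced from the inner GT numbered 54, 56 and 39 in Control and 28, 28 and 26 in cKO, and reads spliced from the outer GT 96, 77 and 66 in Control and 95, 144 and 183 in cKO. Against the reads of both junctions the level was 9.69%, 6.82% and 6.66% in Control and 10.37%, 11.38% and 11.42% in cKO. These values did not overlap, but the difference of 3.33 points did not pass (quasi-binomial test on the joined reads, adjusted p = 0.636). The Clasrp gene had a log2 fold change of 0.11 (limma, adjusted p = 0.765).

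**Figure D3:**
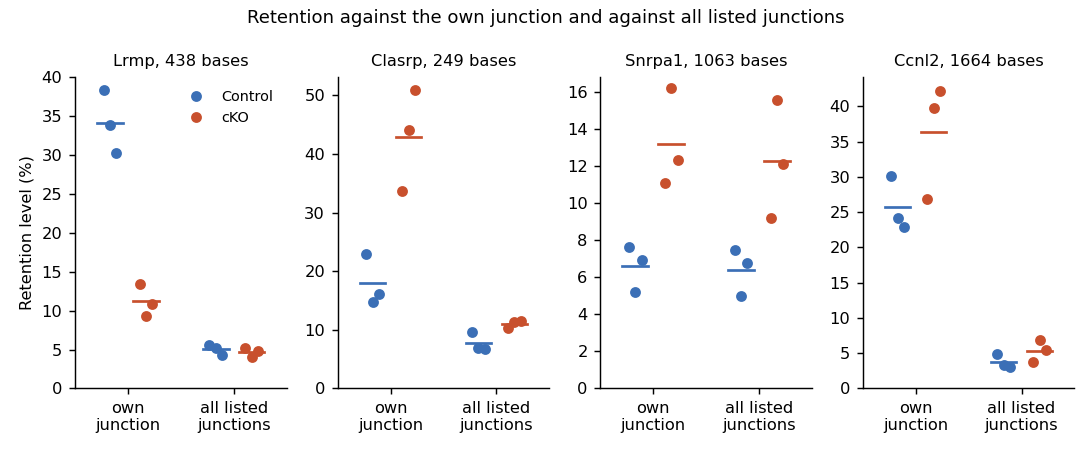
Retention level (percent) of the Lrmp, Clasrp, Snrpa1 and Ccnl2 introns in Control and cKO, against the intron's own junction (left in each panel) and against all listed junctions that share a splice site (right), with points per library position and lines at the means. The Lrmp difference goes from -22.94 points to -0.34 and that of Clasrp from 24.94 to 3.33. Ccnl2 has means of 25.72% in Control and 36.31% in cKO on the left and 3.72% and 5.34% on the right. Its levels fall in both conditions, so its difference in points falls with them. Snrpa1 has means of 6.59% and 13.23% on the left and 6.42% and 12.3% on the right, where only 1 listed junction was joined.

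Large differences lay almost entirely in introns that share a splice site or hold another exon. Of the 1253 tested members, 58 differed by at least 10 points either way, 33 higher and 25 lower in cKO, where 4.17% of all tested introns did. Of these 58, 57 (98.3%) shared a splice site with another intron or had another exon or gene inside, and so did 702 of the other 1195 members (58.7%). The 58 rested on few reads, with a median of 56.4 reads per library and 6.92 spliced reads, against 176.8 and 152.2 in the others. For 12 of the 58 no other junction sharing a splice site is listed, so their value could not change. When the other 46 were set against all listed junctions that share a splice site, 8 still differed by at least 10 points, 38 differed by less and 28 of these by under 1 point. Joining adds only spliced reads, so it can only lower a level and tends to shrink a difference in points even where the proportion is kept. These counts do not show that the differences disappear. In the test on joined reads, 0 of 1377 members passed an adjusted p under 0.05, where 0.464% of 2370 introns did, and 90 had an unadjusted p under 0.05, where 7.97% did.

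Introns that share no splice site and hold no other exon or gene gave smaller differences. This class was defined after the results above had been seen, and its counts are a description. Junctions of listed skipped exons did not count as sharing a splice site here. When they did count, 283 of the 494 tested members were left. Of its 494 tested members, 0 were called and 0 passed an adjusted p under 0.05 in the quasi-binomial test moderated with limma, and 22 (4.45%, 17 higher and 5 lower) had an unadjusted p under 0.05. The cKO mean was higher in 281 (56.9%) with a median difference of 0.031 points. The library medians ran from 0.386% to 0.437% in Control and from 0.389% to 0.497% in cKO. The other 759 members had 65 with an unadjusted p under 0.05 (8.56%) and a median difference of 0 points.

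**Figure D4:**
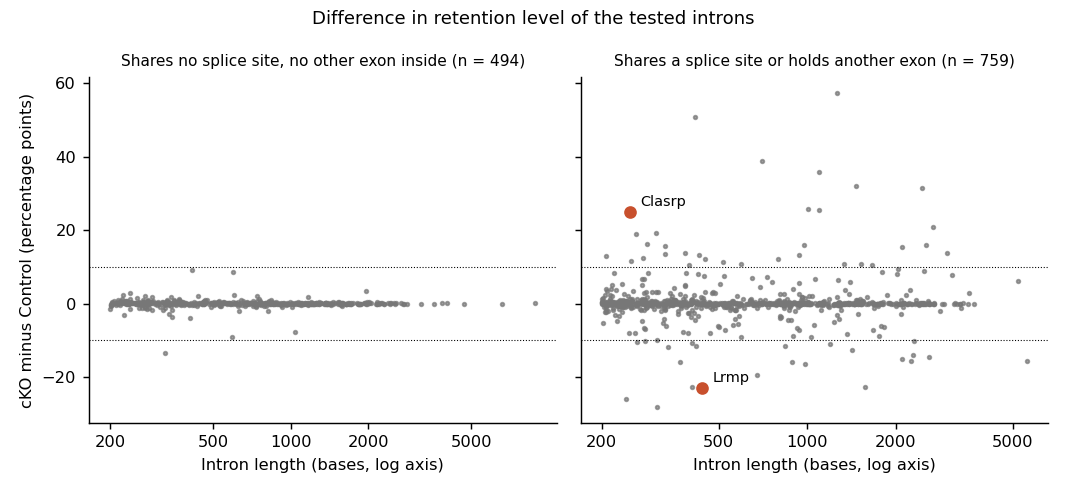
Difference in retention level, cKO minus Control in percentage points, against intron length in bases (log axis) for the 494 tested members that share no splice site and hold no other exon (left) and the other 759 (right). Junctions of listed skipped exons do not count as sharing. Dotted lines mark 10 points either way and large points the members at an adjusted p under 0.05; 1 point on the left and 57 on the right lie past the lines.

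The exception among the 58 was an intron of Elk3, the gene of an ETS transcription factor, named here after its values were seen. The 326-base intron had levels of 28.74%, 30.77% and 26.79% in Control and 16.09%, 20.25% and 9.76% in cKO, without overlap. It rested on 23.7 reads per library in Control and 35.3 in cKO, and the difference of -13.4 points did not pass (quasi-binomial test, adjusted p = 0.566).

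Among the members whose libraries did not overlap, the 5 largest rises beside that of Clasrp were in Ctc1, a subunit of the CST complex at telomeres, Bap1, a nuclear deubiquitinase, Styx, Sec11c, a signal peptidase subunit, and Xlr4b. Each held another annotated exon, and none passed an adjusted p under 0.05. The Ctc1 intron of 1261 bases had levels of 33.42%, 57.87% and 36.76% in Control and 100%, 100% and 100% in cKO. It rested on 4, 2 and 2 spliced reads in Control and 0 in each cKO library (adjusted p = 0.338), and its level against all listed junctions was 4.04% and 4.79%. The Bap1 intron had 47.28%, 12.67% and 13.66% in Control and 100%, 70.36% and 55.87% in cKO, and between 0 and 5 spliced reads in each cKO library. The Styx intron had 41.19%, 43.43% and 47.5% in Control and 100%, 84.44% and 64.3% in cKO. No junction sharing a site with the Bap1 or Styx intron is listed, so these 2 have no joined value. The Sec11c intron of 2096 bases was better covered, with 695 to 997 intron reads in Control and 1200 to 1262 in cKO. Its level was 54.83%, 64.14% and 61.4% in Control and 79.93%, 70.53% and 76.27% in cKO (adjusted p = 0.203), but 3.15% and 2.98% against all listed junctions. Xlr4b had means of 38.89% and 52.51%, and 4.79% and 3.97% against all listed junctions.

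The 5 largest falls beside that of Lrmp were in Mak16, a ribosome biogenesis factor, Apbb3, Arhgap4, Becn1 and Dcp1b, a decapping factor, and again none passed. The rises of Ctc1, Bap1 and Styx were larger than that of Clasrp, and the falls of Mak16 and Apbb3 larger than that of Lrmp. The Apbb3 intron had levels of 69.57%, 74.5% and 62.79% in Control and 33.53%, 42.47% and 53.01% in cKO (adjusted p = 0.143). Against all listed junctions Apbb3 had 61.74%, 66.08% and 49.61% in Control and 25.16%, 31.8% and 37.5% in cKO, and its adjusted p of 0.0631 was the smallest among the members in that test. Arhgap4 was at 100% in each Control library, with 0 spliced reads, and at 77.76%, 75.45% and 79.02% in cKO, with 2, 7 and 4 spliced reads. Its level against all listed junctions was 1.76% and 2.15%. The Becn1 intron of 887 bases had means of 69.35% and 53.5%, and 2.13% and 2.03% against all listed junctions, and Dcp1b 40.4% and 26.33%, and 2.85% and 2.34%. Mak16 kept a difference, with means of 88.78% and 60.62% and, against all listed junctions, 85.27% and 58.11%, on 0 to 11 spliced reads per library.

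Introns of spliceosome genes included no called member. The list held 91 genes of snRNP and spliceosome proteins, 17 of them with 22 tested members, and 4 of these (18.2%, where 9.02% of all tested introns did) had an unadjusted p under 0.05, 2 higher and 2 lower, with a median difference of -0.001 points. Snrpa1 encodes the U2 snRNP protein A′. Its member of 1063 bases is spliced as intron 5 of 7 in a transcript of the nonsense-mediated decay class. It holds another annotated exon and shares a splice site with 2 annotated introns. The levels were 7.65%, 5.19% and 6.93% in Control and 11.09%, 16.26% and 12.35% in cKO. All cKO values lay above all Control values. The mean went from 6.59 ± 1.26% to 13.23 ± 2.7% (SD, n = 3), which did not pass (quasi-binomial test, adjusted p = 0.0808, and 0.195 on joined reads). It passed with the dispersion prior set over all events (0.0305), without the Control values at position 1 (0.0487) and without the cKO values at position 1 (0.0226).

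The Snrpa1 intron had 64, 53 and 46 intron reads in Control and 71, 120 and 110 in cKO, and 95, 119 and 76 spliced reads in Control against 70, 76 and 96. As raw reads, not adjusted for depth, the intron reads did not overlap between the conditions and the spliced reads did. The closest intron reads, 64 and 71, were both at position 1, where 593784 reads fell on the members in Control and 667126 in cKO. A separation of the intron reads beyond depth was not shown. Joining added 1 listed junction and gave Snrpa1 97, 124 and 78 spliced reads in Control and 86, 80 and 98 in cKO. Junctions that are not listed entered neither level. Bcas2, a subunit of the PRP19 complex, had levels of 3.25%, 4.09% and 4.64% in Control and 1.73%, 2.37% and 1.75% in cKO (adjusted p = 0.226), but 0.06% and 0.05% against all listed junctions. Rbm5, a regulator of exon inclusion in apoptosis genes, had means of 2.98% and 1.71% (adjusted p = 0.226) and Syf2 of 0.56% and 0.78% (adjusted p = 0.515).

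Of 18 tested introns in 13 genes of a list of SR proteins and their kinases, which also holds the helicase gene Ddx5, 0 were called, 2 had an unadjusted p under 0.05, both lower, and the median difference was -0.085 points. The 1265-base intron of Ddx5, an RNA helicase of splicing complexes, had levels of 0.61%, 0.33% and 0.1% in Control and 0.11%, 0.07% and 0.09% in cKO. One Control value lay among the cKO values, and the adjusted p was 0.158. Srsf5 had 0.82%, 0.26% and 0.41% in Control and 0.22%, 0.22% and 0.25% in cKO (adjusted p = 0.427). The Control values spread more widely than the cKO values in both genes. Rsrp1 had means of 4.13% and 2.41% and Srsf7 of 4.09% and 3.27%.

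Among genes of hnRNPs and other RNA-binding regulators, 21 introns in 13 genes were tested, 0 were called and 1 (4.76%) had an unadjusted p under 0.05. Nono, a paraspeckle protein, had means of 0.51% and 0.75%, and Hnrnpk of 1.64% and 1.94%. Of 14 introns in genes of RNA decay, export and m6A, 0 were called and 1 (7.14%) had an unadjusted p under 0.05, in Thoc1, at 100% in each Control library and at 100%, 78.7% and 85.82% in cKO. Against all listed junctions Thoc1 had 1.83% and 1.66%. Mettl14, a subunit of the m6A methyltransferase, had 0.17% and 0.07%, and Oga, which is on this list but is known for removing O-GlcNAc from proteins, 0.53% and 0.23%.

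Chromatin and transcription genes held 26 tested introns in 14 genes, with 0 called and 7 at an unadjusted p under 0.05 (26.9%, where 9.02% of all tested introns were), 3 higher and 4 lower, and a median difference of 0.059 points. Ccnl2 encodes cyclin L2, a partner of the splicing-linked kinase CDK11. Its 1664-base intron had levels of 30.12%, 24.1% and 22.95% in Control and 26.93%, 39.8% and 42.19% in cKO (adjusted p = 0.36), and 3.72% and 5.34% against all listed junctions. Its relative Ccnl1 went the other way, at 3.24%, 2.71% and 2.25% in Control and 1.11%, 1.77% and 1.9% in cKO (adjusted p = 0.225). Smarcc2, a subunit of BAF chromatin remodeling complexes, had 3.97%, 2.83% and 2.49% in Control and 1.79%, 1.9% and 1.83% in cKO (adjusted p = 0.376), and the histone demethylase gene Kdm5a had means of 0.92% and 0.24%.

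Few introns in genes of T cell function were listed. The p53 pathway and apoptosis list of 45 genes had 4 members, of which 1 was tested, an intron of Trp53 with means of 0.04% and 0.02%. The 73 genes of T cell receptor, costimulation and signaling had 1, in the cytokine receptor kinase gene Jak3, with 1.01% and 0.99%. Neither had an unadjusted p under 0.05. Interferon and antigen presentation genes had 5 tested introns with 0 called and 1 at an unadjusted p under 0.05 (20%), in Sp110, with 0.16% in Control and 0.40% in cKO. An intron of the immunoproteasome gene Psmb9 with few spliced reads had 41.51 ± 11.95% and 38.95 ± 17.55% (SD, n = 3), while the overlapping Psmb9 intron of 537 bases had 0.85% and 0.98%.

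Introns with the start of the U12 class did not pass either. A start of ATATCC or GTATCC, read at the first 6 intron bases on the strand of the gene, was found in 24 of 1641 members (1.46%) and in 0.875% of the shorter introns. Of these, 21 were tested, 0 were called, 2 had an unadjusted p under 0.05 (9.52%, both higher), 14 had a higher cKO mean and the median difference was 0.089 points. Tcea2, a transcription elongation factor, had 7.4%, 6.76% and 4.96% in Control and 2.42%, 16.02% and 3.43% in cKO, and the cKO values lay on both sides of the Control values. The AT-AC intron of Pole2, a DNA polymerase epsilon subunit, had means of 0.92% and 0.32%, and that of Ift80, an intraflagellar transport protein, 0.06% in both conditions. The 389-base Rnf123 intron, whose start differs from these letters, had 0.76%, 0.51% and 0.55% in Control and 0%, 0.31% and 0.21% in cKO, without overlap (adjusted p = 0.582). In Rpl4, which holds Snord16a in a U12-like intron, the level was 0.13%, 0.46% and 0.4% in Control and 0.54%, 0.6% and 0.57% in cKO, without overlap (adjusted p = 0.226).

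Members at the top of the range were introns whose own junction had almost no reads. Top and bottom were chosen by the mean Control level alone. The cKO level could thus only be equal or lower where Control was at 100%. It could only be equal or higher where Control had 0 intron reads. Introns of Sirt7, Gimap4, Htra2, Vps28 and Gm38431 were at 100% in each Control library and at means of 99.33%, 95.49%, 95.15%, 96.25% and 84.86% in cKO, with at most 5 spliced reads in any library. No annotated transcript splices exactly these introns. Against all listed junctions the Control level was 1.58% in Sirt7, 11.43% in Gimap4, 55.53% in Htra2 and 0.32% in Vps28, but it stayed at 100% in Gm38431, with 81.61% in cKO. The Gm38431 intron holds exons of Fdx1l and Raver1. It had 99 to 140 intron reads per library, while the Gm38431 gene had 0 to 6.572 normalized counts. Which gene these reads came from was not tested. Well covered members at the bottom, in H2-Oa, Trabd, Utp15, Chchd2 and Cnn3, had 0 intron reads in the Control libraries and at most 6 in a cKO library. The longest members with that many reads lay in Hace1 (8856 bases), Fam53a (6583), Clcn3 (4043), Celf2 (3699) and Snrpc (3580), and none was above 0.23% on average in either condition.

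Few host genes of the members were called. A call needed a log2 fold change past 1 either way. On simulated counts, 1 of 100 genes changed 1.5-fold and 83 of 100 changed 3-fold were called, so smaller changes can be missed. Of 1172 host genes tested with limma, 5 (0.427%) were called, where 0.564% of all 11001 tested genes were. An unadjusted p under 0.05 was found for 169 of these host genes and for 1836 of all tested genes. DESeq2 on whole reads called 15 host genes (1.28%), where 2.15% of all tested genes were. Ddx55, an RNA helicase, had a log2 fold change of 1.14, the adaptor gene Grb7 of 1.33 and the kinase gene Plk2 of 1.59, and Rnaset2b had -1.01. Over 10 alternatives Rnaset2b no longer passed an adjusted p under 0.05 in 6 (0.0675 to 0.242), Grb7 in 4 (0.0946 to 0.124) and Ddx55 in 2 (0.0552 and 0.0603), and Plk2 passed in each. Their own member introns had low levels. The 1999-base Ddx55 intron had means of 0.94% and 1.19% and the Rnaset2b intron of 1.21% and 1.5%, and neither passed (adjusted p = 0.822 and 0.883), while the Grb7 and Plk2 introns had too few reads to be tested. The fifth was Cd2bp2 itself, with normalized counts of 2624, 2602 and 2612 in Control and 884, 873.8 and 738.1 in cKO, or 31.8% of the Control level (log2 fold change -1.65, standard error 0.11, limma adjusted p = 0.00137; exact permutation p = 0.1, the smallest possible).

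Cd2bp2 holds a member too, intron 2 of 6, of 202 bases at chr7:127195159-127195360 on the minus strand. Its spliced reads were 132, 142 and 104 in Control and 27, 13 and 28 in cKO. Intron reads were 2 in 1 Control library and 0 in the other 5, and retention at this intron was not detectable in cKO at this depth.

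At the length limit the values are a description. Of the tested introns just inside, the 200-base introns of Rnpepl1 and Tecpr1 had means of 0.45% and 0.66%, and of 2.17% and 0.71%, in Control and cKO. Just outside, the 199-base intron of Mapk11 had 6.96% and 4.38%.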

How the data were processed

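RNA of 3 Control and 3 cKO libraries of CD4+ T cells was sequenced as paired reads after low-input library preparation. Per the methods, the authors used cutadapt for trimming, STAR with the GRCm38 genome for alignment, featureCounts for genes and rMATS for splicing. The methods name GENCODE as the source of the genome. The annotation release used in counting and any strand setting are not given in the sources used here. Gene values are deposited as a normalized signal, counts divided by DESeq2 size factors, and 100% of values were whole reads within 0.01 after rescaling. The deposited splicing tables hold whole counts of reads per form, from junctions and exons, 3 per condition. The authors' own columns (p-value, FDR, inclusion levels and their difference; fold changes per gene) were not used. All columns of samples were used.

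Retention was the length-normalised share of the retained form. Introns averaging 20 reads or more in each condition were tested with a quasi-binomial model, its dispersion moderated with limma 3.58.1 in R 4.3.3 (prior over introns whose rarer form averaged 5 reads or more, 10.6 degrees of freedom; floor of 1), with Benjamini-Hochberg adjustment over all 2206 tested introns. Genes that had a symbol and averaged 100 or more in either condition entered limma as log2(normalized count + 1), and a call needed a log2 fold change past 1 either way and an adjusted p below 0.05. This scale understates changes of low genes. Alternatives used edgeR 4.0.16 and DESeq2 1.42.0. Sequences came from GENCODE transcripts on GRCm38 that retain the intron, and figures from matplotlib 3.10.9.

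Library totals are in the report. On simulated counts for cKO against Control over 2206 introns, the changed introns all started from a retention level of 35%. Of these, 22 of 100 changed by 15 points and 50 of 100 changed by 30 points were called, with 1 false call, so smaller shifts can be missed. The median Control level of the tested members was 0.768%, and recovery from such low levels was not simulated. Introns were named by a rule: all called, all at an adjusted p under 0.05, and the 5 largest non-overlapping differences per direction. The rule also took the 5 highest and the 5 lowest by mean Control level and the 5 longest, with at least 100 reads. Up to 4 of smallest p per gene list were added. An intron of 1 listed gene is not reported here. The members, lists and tests were chosen with earlier results of these data known.

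Joined retention, chosen after seeing the data, set the intron reads against the spliced reads of all listed junctions that share exactly 1 splice site. The first version used the retained intron table alone. It was widened by the outer junctions of skipped exons after the rows of Lrmp had been looked at. All 252 junctions present in both tables had equal reads at all 6 positions. The class sharing no splice site was also set afterwards, as the second of 3 definitions tried. Overlapping genes and near-identical copies cannot be told apart in these counts.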

Additional observations from a re-analysis of the deposited data

How the results depend on the processing

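With any read minimum, without the dispersion floor, with the prior over all events, without length normalisation and at 5 points, the count of called members stayed at 1. The edgeR test called 0 members (1 at an adjusted p under 0.05), limma on logit retention 0 (and 0), and with no minimum on reads 1 member passed an adjusted p under 0.05. On retained introns joined within their own table, chosen after seeing the data, 1 member was called and passed, Lrmp (adjusted p = 0.00134), and Clasrp had 3.33 points (0.648). With skipped exons added, 0 were called and 0 passed. Among the 494 introns that share no splice site and hold no other exon, and among the 283 left when listed skipped exons count as sharing, 0 were called and 0 passed. Among the 644 introns of the first definition, which asked for no other exon only, Lrmp was called and Clasrp passed at an adjusted p of 0.0191. The joined reads reversed Sec11c to -0.17 points, Xlr4b to -0.82 (-0.78 in the narrower version), Arhgap4 to 0.4, Vps28 to 0.01 and the Psmb9 intron of 411 bases to 0.11.

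Without 1 library position at a time, the count at an adjusted p under 0.05 ran from 1 to 5, the called host genes from 2 to 6, and the difference of the median retention of long retained introns from -0.000156 (without the cKO values at position 2) to 0.0892 points. Lrmp was called each time (adjusted p from 2.45e-05 to 0.00653). Some introns near 0 or with few spliced reads changed sign. The ranges were -0.05 to 0.02 points in Celf2, -0.24 to 0.17 in Jak3, -0.05 to 0.01 in Trp53, -0.13 to 0.04 in Sp110 (444 bases), and -10.56 to 6.83 and -0.1 to 0.25 in the Psmb9 introns of 411 and 537 bases. DESeq2 on whole reads called 15 host genes (1.28%, and 2.15% of all tested genes). The host gene counts were 2 (0.171%) without CTRL_1.2, 2 (0.171%) without CTRL_3.4 and 4 (0.341%) without CTRL_5.6. Of all tested genes, 0.236%, 0.245% and 0.308% were called in these settings. Host genes called were 6 (0.512%) without KO_7.8, 3 (0.256%) without KO_9.10 and 3 (0.256%) without KO_11.12. Of all tested genes, 0.64%, 0.263% and 0.244% were called there. Where a setting changed a result, the cause was not tested. No paired analysis was possible because the labels give the groups no shared replicate numbers and the splicing tables name no libraries. No intron is listed more than once, so keeping 1 event per intron changes nothing.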
